A study of Mus musculus with 4 samples.

Results

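The comparison described here is that of keratinocytes labelled p38a-KO with wild-type (WT) keratinocytes 4 h after ultraviolet B (UVB) at 75 mJ/cm2. The series holds 4 Affymetrix expression arrays, and the comparison takes the 1 irradiated array of each genotype. The other 2 arrays, from unirradiated cells of the 2 genotypes, give the genotype difference without UVB on separate arrays and are set beside it. The cells were primary keratinocytes, the main cell of the epidermis, isolated from newborn C57BL/6 mice and kept in culture at 37 °C until irradiation. The knockout groups are labelled p38a-KO with no promoter, Cre driver or deleted exon named beyond a code in the sample descriptions that the labels do not explain, and the number of animals behind each culture is not stated. The design text gives the question only as expression at 0 and 4 h, under a title on p38a-dependent genes. The labels name no mock-irradiated culture at 4 h. Of 18193 genes named on the array, 10306 counted as measured in the irradiated pair, that is, the mean of the 2 irradiated signals reached a floor of 24.9 units, set at the middle of the probe sets when each is averaged over the 4 arrays. In 9649 of them both irradiated arrays reached the floor, and in 657 only 1 did. For those 657 the lower signal was raised to the floor, so their folds are given as "at least". Each group has 1 array, so no replicate error stands behind a pairwise difference and precision is limited by the array number.

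p38alpha, encoded by Mapk14, is a mitogen-activated protein kinase switched on by ultraviolet light, osmotic stress and inflammatory cytokines. The upstream kinases MKK3 and MKK6 (Map2k3, Map2k6) phosphorylate it, and it acts through MAPKAP kinase 2, MSK kinases and transcription factors. In epithelial cells it is known for inducing cytokine, chemokine and prostaglandin synthase genes, for stabilising their short-lived mRNAs, and for a part in keratinocyte differentiation. Dual-specificity phosphatases such as Dusp1 remove the activating phosphates, and Zfp36 (tristetraprolin) binds AU-rich elements and promotes decay of the same cytokine mRNAs.

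Signals are given throughout in the order unirradiated WT, irradiated WT, unirradiated KO-labelled and irradiated KO-labelled. The targeted gene comes first as a check of the labels. The brightest of the 6 Mapk14 probe sets read 985.4, 292.5, 1449 and 646.8 units, which is 2.21-fold higher in the KO-labelled cells after UVB. The next 2 in brightness were 1.39-fold and 1.96-fold higher there. Both KO-labelled arrays lay above the WT array of the same condition. Probe sets on arrays of this type generally sit towards the 3' end of the mRNA, and their positions on Mapk14 were not examined. The deleted part of Mapk14 is not given in the sources used here. These probes therefore do not check the deletion, and every direction below rests on the labels. With quantile normalization, and with a gene's probe sets averaged, the Mapk14 difference after UVB was under 2-fold. The genes beside Mapk14 on chromosome 17 did not share its difference: Srpk1 read 320.5 and 304.5 units on the irradiated arrays, Mapk13, which encodes p38delta, 855.8 and 828.4, and Fkbp5 307.6 and 343.7. Brpf3 was 1.55-fold lower, at 40.12 and 25.97 units near the floor.

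After UVB, the KO-labelled cells had 169 genes (1.64% of the 10306 measured) lower by 2-fold or more and 163 (1.58%) higher by as much. Late cornified envelope genes, antimicrobial proteins and the neutrophil chemokine Cxcl2 were among the largest differences downward. A p38 activating kinase, a glutathione transferase and extracellular matrix genes were among the largest upward. The lower genes reached larger folds: 46 genes were lower by 3-fold or more and 14 higher. Of the calls, 28 of the lower and 44 of the higher rest on a signal raised to the floor. The median log2 difference (KO-labelled minus WT) over the measured genes was 0.08, and 59.8% of genes lay above 0. The split of calls depended on the scaling: it was 49.1% higher in the signals as deposited, 36.9% with median centring of the arrays (213 higher, 365 lower) and 36.3% with a loess fit within each pair (123 higher, 216 lower). Centring moved the median of all genes to -0.03, a shift of over 0.1 against which the small medians below should be read. The irradiated arrays themselves were close in overall level, with medians of 18.67 units in WT and 18.72 in KO-labelled cells over all probe sets. On these arrays 9 probe sets for spiked-in hybridisation controls differed by a median log2 of -0.05. The unirradiated arrays had higher medians, 30.33 units in WT and 34.45 in KO-labelled cells. Signals are quoted as deposited, without rescaling to a common level. Comparisons of single or summed signals between unirradiated and irradiated arrays below therefore include this difference in array level.

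**Figure D1:**
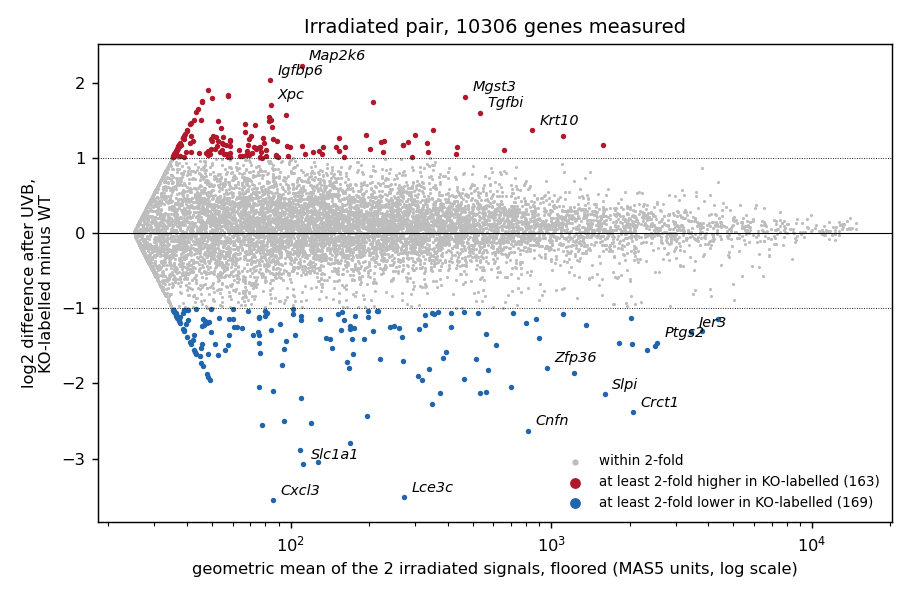
Each point is 1 of the 10306 measured genes, with the geometric mean of its 2 irradiated signals on a log x axis (MAS5 units, raised to the floor) and the log2 difference, KO-labelled minus WT, on the y axis. The 169 blue genes are at least 2-fold lower and the 163 red genes at least 2-fold higher. Genes higher by 2-fold sit mostly at low signal, while blue genes such as Crct1, Slpi and Ptgs2 are found at high signal too.

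The calls differed in signal level. Among the 4238 genes with a mean irradiated signal under 100 units, 2.93% were called higher and 1.79% lower. Among the 741 genes above 1600 units, 1 gene (0.135%) was called higher and 11 (1.48%) lower. The spread of the difference across genes fell from an SD of 0.49 in the dimmest bin to 0.31 in the brightest. Where a called gene had other probe sets above the floor, all of them pointed the same way as the one used for 39 of 46 lower genes and 43 of 56 higher genes, against 54.3% of 4430 measured genes. The last share includes genes with differences near 0, whose sign is less stable. The other probe sets were read on the same 2 arrays, so their agreement is not separate support.

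Within the p38 pathway the largest difference was upstream of the kinase. Map2k6 (MKK6) read 117.5, 51.02, 331.4 and 239.5 units, 4.69-fold higher after UVB and 2.82-fold higher without irradiation. Its relative Map2k3 (MKK3) read 968.1 and 1054 units after UVB, a log2 difference of 0.12. Kinases that act downstream of p38 stayed within 2-fold: Mapkapk2 (MK2) read 249.9 and 206.4 units and Mapkapk3 389.6 and 439.5. Of the kinases of the cap-binding factor eIF4E, Mknk1 read 65.57 and 44.04 units, 1.49-fold lower, and Mknk2 900 and 804. Of 19 measured pathway genes (23 on the array), 2 were at least 2-fold higher and 0 lower. The list median was 0.12 and turned to -0.06 and -0.14 with quantile normalization and centring. In the JNK and ERK cascades, Map3k8 (Tpl2), a kinase that links inflammatory receptors to ERK, was 2.03-fold lower at 57.64 and 28.45 units, the only one of 14 measured genes past 2-fold, and the list median of 0.09 turned below 0 with centring and loess.

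Chemokines that recruit neutrophils and dendritic cells were lower. Cxcl3 read 174.1, 293, 83.87 and 18.47 units and was at least 11.8-fold lower after UVB, the largest fold of the comparison. Cxcl2 read 286.7, 1117, 162.2 and 254.7 units, 4.38-fold lower. Cxcl1, another ligand of the neutrophil receptor CXCR2, read 746.7, 1613, 764.4 and 764 units. The 3 genes share the pattern that the irradiated WT array is the highest of the 4, while the genotypes differed in the unirradiated cells for Cxcl3 and Cxcl2 and not for Cxcl1 (1.02-fold). Ccl20, the CCR6 ligand of dendritic cells, was 3.29-fold lower, at 297.8 against 90.52 units. Of 13 measured chemokines (20 on the array) these 4 were at least 2-fold lower and 0 higher. The others lay between -0.54 (Cxcl16) and 0.57 (Cxcl14, a chemokine made constitutively by epithelium). The list median was -0.14.

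Among the IL-1 and IL-36 family, 4 of 12 measured genes were lower by 2-fold and 0 higher, with a median of -0.35. Il1f6, which encodes the alarm cytokine IL-36alpha, read 216, 169.8, 71.57 and 50.27 units. Il1f9 (IL-36gamma) read 477.3, 499.4, 233.3 and 213.7 units, and Il1f5, the antagonist of the same receptor, 760.5, 636.6, 452 and 267.5. In these 3 genes both KO-labelled arrays lay below both WT arrays. Il1a (IL-1alpha), which keratinocytes store and release on damage, was 2.76-fold lower, at 125.4 against 45.4 units, whereas Il1b was higher by 0.64 on the log2 scale near the floor, at 49.15 and 76.45. Il18 and Il33, other stored alarm cytokines, differed by 0.13 and -0.15. Of 11 other measured cytokines 3 were lower: Il24 (220.9 against 84.07 units), Tnf (95.95 against 40.43) and Csf2, which encodes GM-CSF, at least 2.3-fold (57.2 units against a signal below the floor). Tslp, a cytokine that starts allergic inflammation, read 926.4 and 541.2 units. In NF-kB control, 1 of 17 measured genes was called, Bcl3, at least 3.42-fold lower, while the inhibitor Nfkbia read 2011 and 2151 units and the list median was -0.13.

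Some growth factors and the inducible cyclooxygenase were lower. Ereg (epiregulin) read 134, 432.8, 144.3 and 165.4 units, 2.62-fold lower after UVB and 1.08-fold higher before it. Tgfa was 2.49-fold lower, and the EGF receptor ligands Epgn (3996 against 2037 units) and Hbegf (2394 against 1248) stayed just under 2-fold. Of the receptors, Egfr read 104 and 170.5 units and Erbb3 221.4 and 249.6. Of 12 measured genes in this list, 2 were lower and 0 higher, with a median of -0.06. It was 0.04 when a gene's probe sets were averaged, which also took Tgfa under 2-fold, and -0.31 and -0.38 with quantile normalization and centring, the last with 4 genes lower. Ptgs2 (COX-2), the inducible enzyme of prostaglandin synthesis, read 2187, 4222, 1778 and 1535 units and was 2.75-fold lower. Ptges, the next enzyme towards prostaglandin E2, read 267.8 and 184.3 units, and Hpgd, which degrades prostaglandins, 328.8 and 183.6. Ptgs2 was the only called gene of 8 measured, and the list median was -0.48. Edn1 (endothelin 1), a peptide by which keratinocytes signal to melanocytes, was 3.49-fold lower, at 635.3 against 182.3 units, and was chosen after its value was seen.

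Immediate early genes and the regulators of MAP kinases formed a further group. Zfp36 read 487.3, 1792, 475.3 and 518.9 units: the 2 genotypes were alike without irradiation, and after UVB the KO-labelled signal was 3.45-fold lower. The other measured genes of mRNA decay, 21 of 22, were within 2-fold, and the list median was 0. Dusp1, the phosphatase that inactivates p38 and JNK, read 608, 1450, 428.9 and 551.9 units, 2.63-fold lower, and Dusp5, which acts on ERK, was 2.11-fold lower. The other phosphatases Ppm1d, Dusp10 and Dusp16 lay at -0.89, -0.85 and -0.76, and 10 of 12 measured members were below 0. The phosphatase median was -0.60 after UVB and -0.01 without irradiation, against 0.08 and 0.15 for all genes. Ier3, an early-response survival gene, was 2.5-fold lower, at 5440 against 2178 units, the only called gene of 19 immediate early genes (median -0.23). Egr1 and Ier2 went the other way, at 480.4 against 845.1 and 446.5 against 745.1 units.

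The AP-1 subunits dimerise into the transcription factor that p38, JNK and ERK signalling converge on. Their median was -0.55 with no member past 2-fold. The list was split, with 6 of 11 measured members below 0 and 5 above. Fosl1 read 405.9 and 207.2 units after UVB, Atf3 701.1 and 374.7, Junb 710.2 and 421.2, Fos 1480 and 1005, and Jun 2231 and 1524. Jund, Fosb and Fosl2 differed by 0.02 to 0.04, and Jdp2, which competes with Jun partners, was higher by 0.80. Without irradiation the AP-1 median was 0, and Jun and Junb differed by 0 and -0.03. Atf3 and Fos were lower in unirradiated cells too, by 2.11-fold and 1.54-fold, and Jdp2 was 1.76-fold higher there. Centring placed 2 AP-1 genes past 2-fold lower and loess 1.

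**Figure D2:**
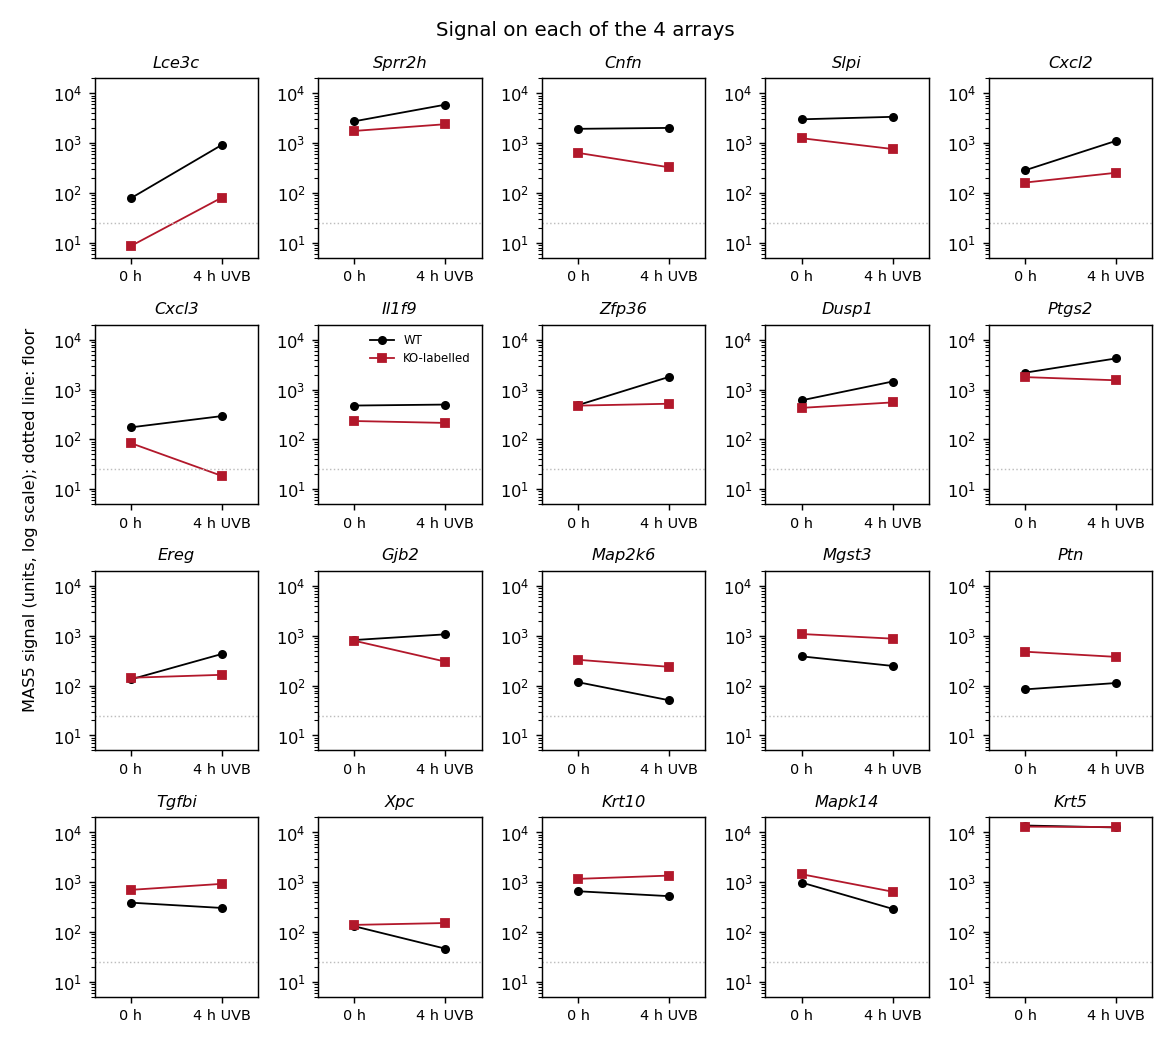
MAS5 signal (units, log y axis) of 20 genes on each of the 4 arrays, with WT as black circles, KO-labelled as red squares and the floor dotted. Lines join the 2 arrays of a genotype. In Zfp36, Ereg and Gjb2 the genotypes meet at 0 h and part after UVB, in Cnfn, Il1f9 and Ptn they are apart on both arrays, and Krt5 overlaps throughout.

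Cornification genes were lower as a group. Cornification is the last step of keratinocyte differentiation, in which small proline-rich (Sprr) and late cornified envelope (Lce) proteins are cross-linked beneath the cell membrane. Lce3c, of the Lce3 group that responds to barrier damage, read 78.55, 922.1, 8.613 and 80.62 units, 11.4-fold lower after UVB. Lce3f read 66.92, 445.3, 10.67 and 64.02 units, and Lce1i 93.44, 365.2, 76.62 and 44.18. In all 3 genes the irradiated WT array is the highest, and for Lce1i the unirradiated genotypes differed by only 1.22-fold. Sprr2h, a bright member, read 2759, 5946, 1765 and 2406 units, 2.47-fold lower. Of 16 measured genes of the list (23 on the array), 10 were at least 2-fold lower, 0 higher and 16 below 0, and the median was -1.37 after UVB and -0.40 without irradiation. The smallest difference was that of Sprr2f, at 212.2 and 183.7 units. Of the 16 probe sets, 6 are marked as able to bind related transcripts, so single Lce and Sprr copies may not be told apart. The list median lay between -1.44 and -1.02 over the alternatives, and under quantile normalization, centring and loess it was nearer 0 than that of the antimicrobial list.

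Scaffold and later envelope genes were lower in part. Cnfn (cornifelin) read 1944, 2029, 639.1 and 328.4 units, 6.18-fold lower, and Crct1 3556, 4693, 1019 and 899.1, 5.22-fold lower. Tgm1, the transglutaminase that cross-links the envelope, read 898.4 and 353.2 units after UVB, Lor (loricrin), its most abundant substrate, 243.9 and 99.88, and the protease Asprv1, which processes filaggrin, 4190 and 1487. Of the 2 other Lor probe sets above the floor, only 1 pointed the same way. Of 21 measured genes 7 were lower by 2-fold and 0 higher. In contrast, Ivl (involucrin) read 100.7 and 121.3 units, Krtdap 7600 and 6913, and Evpl and Ppl (envoplakin, periplakin) differed by 0.06 and -0.30, which places the list median at -0.21. The regulators Prdm1 (Blimp1; 287.5 against 49.88 units), Grhl3 (132 against 54.03), Ovol1 (271.6 against 112.9) and Grhl1 (160.2 against 74.69), transcription factors of late epidermal differentiation, were also lower. The suprabasal keratins differed among themselves. Krt1 read 1287, 708.1, 1814 and 1730 units and Krt10 659.4, 526.1, 1170 and 1361, 2.44-fold and 2.59-fold higher after UVB. Krt23 read 153.9, 74.49, 43.71 and 14.59 units and was at least 2.99-fold lower. Krt78, Krt79 and Krt80 differed by -0.02, -0.05 and -0.23, and Krt77 by 0.51. Suprabasal and early differentiation genes thus split into 5 lower and 2 higher of 16 measured. Of 18 measured basal keratinocyte genes 0 were called, near the share over all genes (1.58% higher and 1.64% lower), and the median was 0.15. Krt5 read 12610 and 12840 units and Krt14 11980 and 11820.

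**Figure D3:**
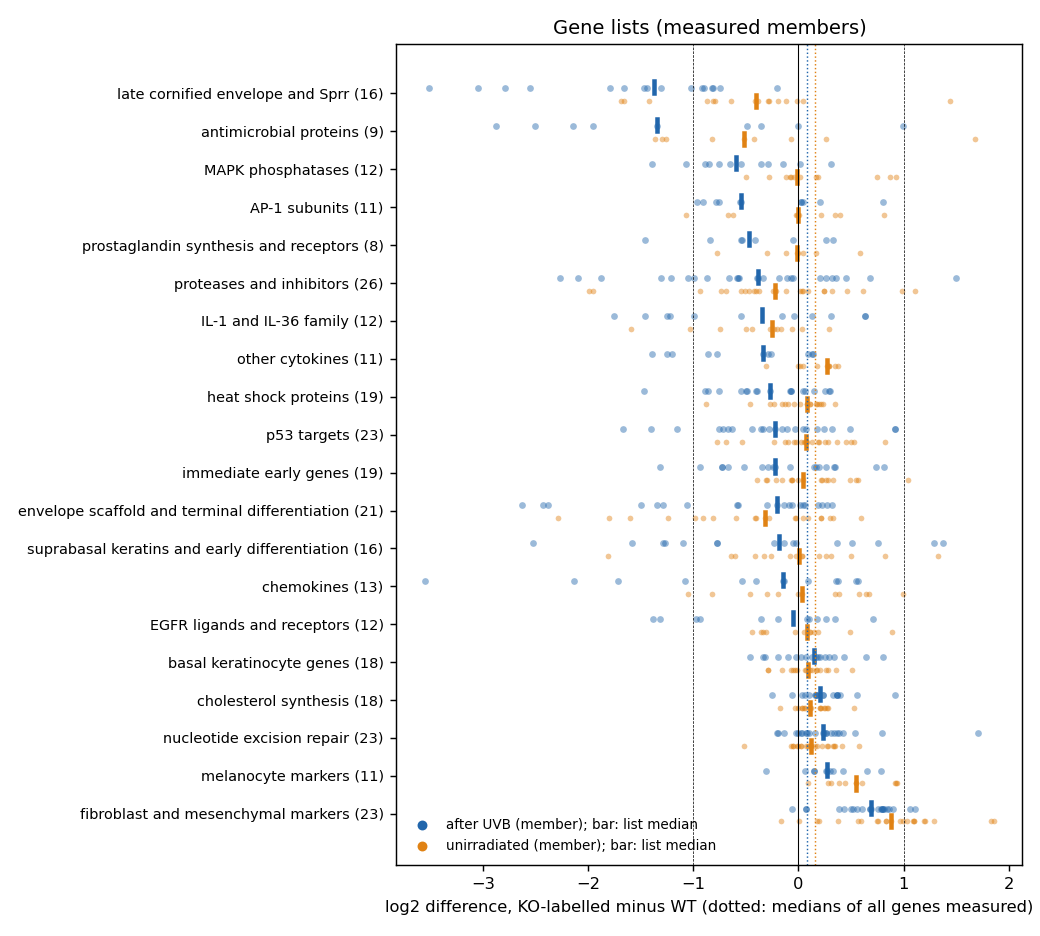
Log2 difference (x axis, KO-labelled minus WT) of every measured member of 20 gene lists, after UVB in blue and without irradiation in orange. Vertical bars are list medians, dotted lines the medians of all measured genes (0.08 after UVB, 0.15 without irradiation) and dashed lines 2-fold. The Lce and Sprr, antimicrobial, phosphatase and AP-1 medians sit left of the dotted lines, further left after UVB than without irradiation, and the fibroblast median sits right of them.

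Many of these envelope genes lie side by side in the epidermal differentiation region of chromosome 3. Between S100a10 and S100a1 the gene table lists 70 protein-coding genes, of which 34 were measured. Of these 16 (47.1%) were at least 2-fold lower after UVB, 0 higher and 28 below 0, against 1.64% lower among all genes. On the rest of the chromosome 4 of 484 measured genes were lower. The median of the region was -0.93 after UVB and -0.34 without irradiation, where 8 genes were 2-fold lower. The differences were unequal along the region: Lce3c, Lce1i, Lce3f, Sprr2i, Crct1 and Kprp were lowest, the other Lce genes lay between -1.79 (Lce1h) and -0.82 (Lce1a1), and S100a6, S100a10, S100a14 and S100a16, calcium-binding proteins of living keratinocytes, lay between -0.08 and 0.06. The region was chosen after its values were seen and shares genes with the lists above, so it is not separate evidence.

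**Figure D4:**
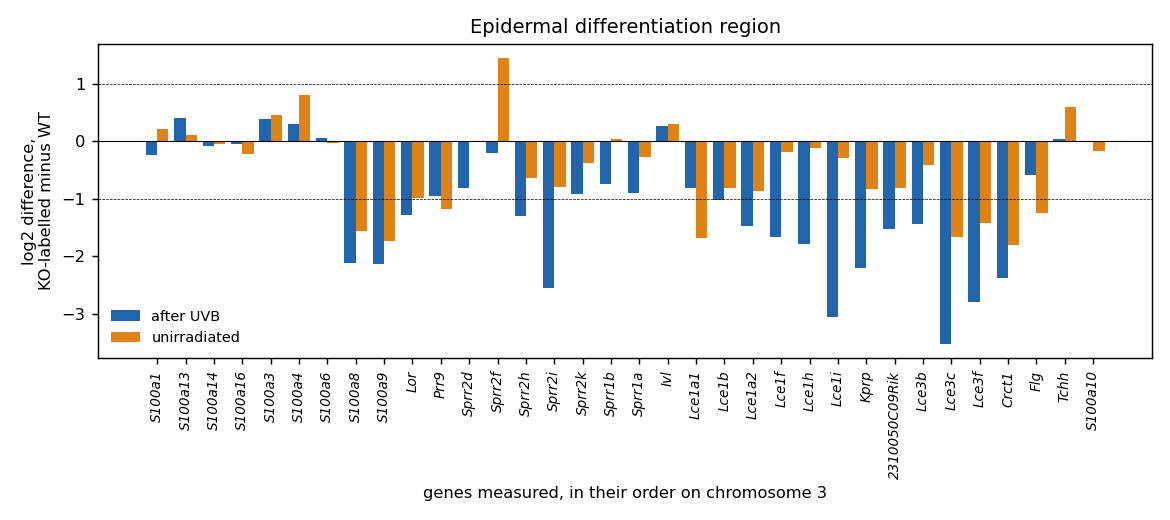
Log2 difference, KO-labelled minus WT, of the 34 measured genes from S100a1 to S100a10 in their order on chromosome 3, after UVB (blue) and without irradiation (orange). Bars start at 0 and dashed lines mark 2-fold. Most blue bars from S100a8 to Crct1 point down and exceed the orange ones, and the S100 genes at both ends lie between -0.25 and 0.39 after UVB.

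Antimicrobial proteins and alarmins, by which keratinocytes defend the surface, were lower as well. Defb3, a beta-defensin, read 194.5, 294.9, 78.92 and 40.07 units, 7.36-fold lower. Lcn2 (lipocalin 2), which withholds iron from bacteria, was 5.67-fold lower at 225 against 39.65 units. Slpi, an antimicrobial inhibitor of elastase, read 3021, 3387, 1259 and 764.6 units. In the 3 genes both KO-labelled arrays lay below both WT arrays. Of 9 measured genes (17 on the array) 5 were lower by 2-fold, 0 higher, and the median was -1.35. A floor at the 25th percentile gave -0.72 and one at the 75th -0.53, and the last took Lcn2 under 2-fold. Defb1, the constitutive beta-defensin, read 3723 and 3712 units, and Wfdc2, a secreted inhibitor related to Slpi, was higher, at 243.6 against 485.9. The alarmins S100a8 and S100a9, which pair as calprotectin, were 4.31-fold and 4.38-fold lower, with 1165 against 270.1 and 785.4 against 179.3 units. The wound keratins Krt6a, Krt16 and Krt17 differed by 0.09, -0.14 and 0.01, so that the list of wound keratins and alarmins had a median of -0.03 with 2 of 14 called.

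Proteases and their inhibitors included 6 lower and 1 higher of 26 measured, with a median of -0.39. Spink5 (LEKTI), the inhibitor of the kallikreins that shed the outer layer, read 1352, 765.7, 339.6 and 158.8 units. Its targets differed less: Klk7 was 2.32-fold lower (2076 against 893.3 units) and Klk5 1.49-fold. Mmp10 (stromelysin 2) read 73.31, 177.6, 43.94 and 41.37 units, and Mmp13 (collagenase 3) 96.68, 91.64, 16.16 and 24.43, at least 3.68-fold lower after UVB. Plaur, the urokinase receptor, was 2.47-fold lower after UVB and 1.01-fold higher before it. Plat, which encodes tissue plasminogen activator, was the 1 higher gene, at 31.38 against 88.74 units.

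Mmp10 and Mmp13 are known AP-1 targets and Dusp1 a known CREB target, so promoter sequence was set beside the values. Promoter windows from 250 bases before to 50 after the annotated start were taken from RefSeq, build GRCm38.p6, and searched on both strands for TGANTCA (the AP-1 element) and TGACGTCA (the cAMP response element). Of the 155 promoters of genes lower after UVB, 8.39% held the AP-1 element, compared with 5.71% of 175 promoters of higher genes, 5.26% of 10721 promoters of measured genes and 7.81% of all 32851 in the table. The response element was in 3.23%, 1.71%, 3.14% and 1.79%. The AP-1 share in the lower genes, 13 of 155, lies near that of the whole table and above that of the measured genes, with no test of the difference. The AP-1 element was also in promoters of the higher genes Map2k6, Ddit3, Capn6 and Fgf13. Neither element was found for the lower genes Cxcl2, Cxcl3, Ccl20, Ptgs2, Zfp36, Ier3 and Lce3c. Of the named lower genes that hold a match, 5 are shown as examples of the effectors described above. They are given on the strand of the gene, with the match in capitals.
Mmp10 (chr9:7502254-7502310, plus strand): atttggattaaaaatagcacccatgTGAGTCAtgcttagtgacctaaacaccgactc
Mmp13 (chr9:7272454-7272510, plus strand): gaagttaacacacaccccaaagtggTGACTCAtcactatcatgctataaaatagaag
Il1a (chr2:129309953-129310009, minus strand): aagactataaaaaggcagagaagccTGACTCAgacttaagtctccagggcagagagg
Prdm1 (chr10:44458765-44458821, minus strand): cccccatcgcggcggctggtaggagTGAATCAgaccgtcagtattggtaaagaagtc
Dusp1 (chr17:26508583-26508640, minus strand): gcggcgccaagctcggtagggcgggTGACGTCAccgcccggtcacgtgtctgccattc
The AP-1 match begins 63, 35, 12 and 48 bases before the start site in Mmp10, Mmp13, Il1a and Prdm1, and the response element of Dusp1 143 bases before it. A match describes letters, not binding.

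Junction genes held 4 lower and 0 higher of 21 measured. Gjb2 (connexin 26) read 826.9, 1075, 797.6 and 304.7 units, 3.53-fold lower after UVB and 1.04-fold before it, and its partner Gjb6 (connexin 30) read 115.2 and 44.83 units after UVB. Cldn7 and the desmosomal Dsc2 were lower, at 89.72 against 40.55 and 666 against 322.5 units, while Cdh1 (E-cadherin) read 5049 and 5810, Dsp (desmoplakin) 7342 and 7290, and Gja1 (connexin 43) 2359 and 2529. The list median was -0.01.

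Damage-response genes were mixed. Plk3, a stress-activated kinase and p53 target, read 449.4, 916, 440.8 and 287.2 units, 3.19-fold lower after UVB and 1.02-fold before it. Ccng2 and Sesn2 were 2.65-fold and 2.23-fold lower. The other p53 targets stayed within 2-fold: Cdkn1a (p21) read 6276 and 3937 units, Mdm2 467.4 and 283.3, Ccng1 4277 and 4403, and Gadd45a was higher, at 795.7 and 1509. Of 23 measured, 3 were lower and 0 higher, and the median was -0.23 after UVB and 0.07 without irradiation. Sesn2 fell short of 2-fold with quantile normalization, centring, the high floor and averaged probe sets. In nucleotide excision repair, the pathway that removes UV photoproducts, Xpc, the damage sensor, read 130.4, 46.34, 139.2 and 151.7 units, 3.27-fold higher in KO-labelled cells and the only one of 23 called; the median was 0.23. Of 23 measured genes of the Bcl-2 family, caspases and death receptors, 0 were called, near the share over all genes (1.58% higher and 1.64% lower). Heat shock genes had 1 of 19 lower, Cryab (3388 against 1221 units, under 2-fold with averaged probe sets), and a median of -0.27. Among NRF2 and oxidative stress genes, Gsta4 (392.9 against 123.1 units) and Hmox1 (310.8 against 151.8) were lower and Mgst3 (249.5 against 880.9) and Txnip (220.1 against 508.6) higher, of 30 measured.

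Fewer of the genes higher in the KO-labelled cells fell in the lists, which were chosen with earlier results of these data known. Igfbp6, a binding protein of IGF2, read 51.54, 41.28, 147.9 and 169.7 units, 4.11-fold higher after UVB. Mgst3, a membrane glutathione transferase, read 387.9, 249.5, 1091 and 880.9 units. Ptn (pleiotrophin), a secreted growth factor, read 84.39, 113.2, 481.6 and 379 units. In these and in Map2k6 both KO-labelled arrays lay above both WT arrays. Tgfbi, a matrix protein induced by TGF-beta, read 389.2, 304.7, 703.4 and 928.3 units, and Dpysl3, known from neurons, 68.07, 49.49, 213.2 and 139.1. Gas1, a growth-arrest gene, read 578.6, 8.867, 1116 and 93.44 units, at least 3.75-fold higher after UVB. Fat2, Pik3r1, Mtif3 and Slc45a1 were likewise bounds, with WT signals of 18.54, 23.71, 20.63 and 23.5 units after UVB and KO-labelled signals between 76.24 and 84.5. Cdca7, Ntn4, Slc39a13 and Ccdc122 read 50.03, 25.31, 26.83 and 40.4 units in irradiated WT cells and 141.8, 71.7, 93.55 and 110.6 in irradiated KO-labelled cells, with log2 differences without irradiation of 0.17 to 0.64. Averaging a gene's probe sets took Mgst3, Dpysl3, Pik3r1, Cdca7, Ntn4, Plat and Fgf13 under 2-fold after UVB, and the 75th percentile floor took Map2k6, and among the lower genes Kprp, Il24 and Dusp5, under it.

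Markers of fibroblasts and melanocytes mostly read higher in the KO-labelled cells after UVB, few of them past 2-fold. Of 23 measured fibroblast and mesenchymal markers (27 on the array), 22 were above 0 after UVB, 2 of them past 2-fold (Tagln, 448.1 against 968.2 units, and Pcolce, 78.9 against 164.8), and the median was 0.70. Without irradiation 9 were past 2-fold higher and the median was 0.88. Tagln after UVB was under 2-fold with quantile normalization, and Pcolce with that, centring, loess and averaged probe sets. Col1a1 read 297 and 474.8 units, Col1a2 508.1 and 886.2, Col3a1 848.6 and 1489, Thy1 259.5 and 485.6, Dcn 64.61 and 117.1, and Pdgfra 27.27 and 28.59. The summed signal of the list was 11270 and 9135 units on the unirradiated and irradiated WT arrays and 20300 and 14930 on the KO-labelled ones, so that both KO-labelled arrays lay above both WT arrays. Fap, Twist1, Twist2 and Prrx1 were below the floor on both irradiated arrays, and no marker read 0. Melanocyte markers were above 0 in 10 of 11 after UVB, against 59.8% of all genes, with 0 past 2-fold. Their median was 0.28 after UVB and 0.55 without irradiation. The summed signal was 7096 and 5497 units on the unirradiated and irradiated WT arrays and 9795 and 6486 on the KO-labelled ones. Here the irradiated KO-labelled array lay below the unirradiated WT array, and these arrays also differed in overall level. Ptprc, Cd207, Itgam and Cd3e of leukocytes and Pecam1 and Kdr of endothelium were below the floor on both irradiated arrays. Of 17, 10, 12, 17 and 3 leukocyte, endothelial, muscle, hair follicle or Merkel and erythroid markers on the array, 4, 1, 4, 5 and 0 were measured, and 0 were called. With so few measured, 0 is near the share over all genes (1.58% higher and 1.64% lower). The part of fibroblast or melanocyte RNA in the genes higher in KO-labelled cells was not tested, and in bulk RNA fewer cells of a type and less RNA per cell cannot be told apart. Sex-linked genes differed too: Xist, the RNA of the inactive X, read 376.3, 76.66, 48.28 and 26.62 units, and the Y-linked Kdm5d, Uty and Eif2s3y were 2.05-fold, at least 1.92-fold and 1.19-fold higher after UVB. The labels give no sex of the animals, and the part of this difference in other genes was not tested.

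The unirradiated pair shares no array with the irradiated pair and is a second measurement of the genotype difference, in cells without UVB. There 139 genes (1.35%) were higher by 2-fold or more in KO-labelled cells, and 66 (0.64%) were lower by that much. Of the 169 genes lower after UVB, 33 were also lower by 2-fold in the unirradiated pair, which is 19.5% of the irradiated list and 33 of the 66 of the unirradiated one. Of the 163 higher, 24 were also higher, 14.7% and 17.3% of the lists. The sign was shared for 122 lower genes (72.2%, against 26.1% of all measured genes below 0 in the unirradiated pair) and for 132 higher genes (81.0%, against 73.3% of all above 0). Without irradiation, 65 of the lower and 59 of the higher genes differed by under 1.25-fold. The share of all measured genes under that bound was not counted, so these counts do not set the called genes apart. Across the 10306 genes the 2 differences correlated with Pearson's r of 0.39 and Spearman's rho of 0.32, a description over genes, which are not independent and share probe affinity and signal level. Genes with a difference in both pairs include Slc1a1 (437.9, 325.2, 107.9 and 38.49 units), Mal, Spink5, Crct1 and Cnfn among the lower and Ptn, Mgst3, Map2k6 and Dpysl3 among the higher.

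**Figure D5:**
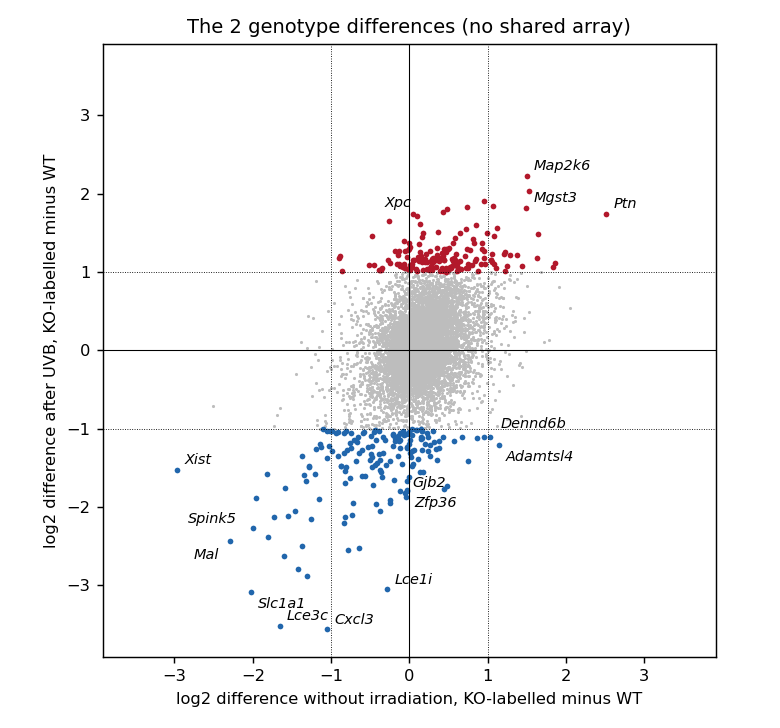
Log2 difference after UVB (y axis) against the log2 difference without irradiation (x axis), both KO-labelled minus WT, for 10306 genes; blue and red mark genes past 2-fold after UVB, dotted lines 2-fold. Slc1a1, Mal and Spink5 are low on both axes and Ptn and Map2k6 high on both, whereas Zfp36, Gjb2, Lce1i and Xpc lie near 0 without irradiation.

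In another set the genotypes differed by under 1.25-fold without irradiation and the irradiated WT array stood highest of the 4. Beside Zfp36, Gjb2, Plk3, Ereg and Ptgs2, the genes Ppif (1089, 2337, 1054 and 640.7 units), Phlda1 (1424, 4010, 1604 and 1363), Cish (336.9, 909, 284.4 and 235.9) and Edn1 belong here, chosen after their values were seen. Ppif encodes cyclophilin D of the mitochondrial permeability pore and Cish a feedback inhibitor of cytokine receptors. Whether the 2 genotype differences of such a gene differ beyond replicate error cannot be tested with 1 array a group.

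One test of genotype was possible over the 4 arrays, an additive limma fit (irradiation plus genotype) that leaves 1 residual degree of freedom. It tests a genotype difference common to both pairs. Its residual is the disagreement between the 2 genotype differences, moderated over genes. A difference present in only 1 condition adds to that residual and is less likely to pass. Nothing says the arrays come from separate animals, so the spread behind the p-values may be technical. At an adjusted p of 0.05, 82 genes (0.796% of 10306) were higher and 60 (0.582%) lower in KO-labelled cells. Of the genes called after UVB, 44 of the 169 lower and 30 of the 163 higher passed in the same direction. The fit includes the 2 irradiated arrays that made these calls, so the overlap is not separate support for them. Crct1, Spink5 and Mal had the lowest limma adjusted p, 0.000847, with log2 effects of -2.09 (SE 0.14), -2.13 (SE 0.13) and -2.36 (SE 0.15), and each was lower in 2 of 2 pairs. S100a9 (-1.93, SE 0.14), S100a8 (-1.83, SE 0.15), Cnfn (-2.12, SE 0.21), Slpi (-1.71, SE 0.18) and Slc1a1 (-2.55, SE 0.25) also passed. Among the cytokines and chemokines only Il1f6, Il1f9, Il1f5 and Cxcl2 passed, the last with an adjusted p of 0.0415. Of the higher genes Ptn (2.13, SE 0.21), Map2k6 (1.86, SE 0.22), Mgst3 (1.66, SE 0.13), Igfbp6, Fgf13 and Krt10 passed, as did Mapk14 (0.85, SE 0.15, adjusted p = 0.0406). By list, 8 of 21 envelope scaffold genes, 3 of 16 Lce and Sprr genes and 2 of 14 wound keratins and alarmins passed as lower. Of 9 antimicrobial genes, 3 passed as lower and 1 as higher. Of 23 fibroblast markers 10 passed as higher, and of the MAPK phosphatases 0 of 12 passed. Zfp36, Dusp1 and Ptgs2 did not pass, at limma adjusted p = 0.196, 0.0577 and 0.104. Their log2 differences without irradiation, -0.04, -0.50 and -0.30, were smaller than after UVB, and the fit counts that disagreement as residual. Without the intensity trend in limma's moderation, or with genotype as the only factor, 0 genes passed in either direction, although 1902 had an unadjusted p under 0.05 in the fit used.

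Called genes were unevenly spread over gene length. Among the 2572 genes with the shortest span (up to 9.61 kb), 3.38% were lower and 1.91% higher, and among the 2570 with the longest (from 51.6 kb) 0.584% were lower and 1.98% higher. The median difference was 0.05 in the shortest and 0.13 in the longest set after UVB and 0.15 and 0.16 without irradiation. By chromosome, the share of lower genes was highest on chromosome 3 (20 of 518, 3.86%), which holds the differentiation region, and on chromosomes 19 and 7 (2.45% and 2.44%). The share of higher genes was highest on chromosome 9 among those with over 100 measured genes (19 of 580, 3.28%).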

How the data were processed

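RNA of 4 samples was hybridised to Affymetrix mouse arrays, 1 array a group; per the labels' protocols, total RNA was taken with Trizol, cleaned on columns and labelled by a 3' in vitro transcription kit. The table deposited by the authors holds linear probe-set intensity from MAS5, per the submitters' processing notes; which MAS5 version and scaling target were used is not given in the sources used here. Of 45101 probe sets, 34945 map to exactly 1 gene symbol of the platform annotation, 932 to several and 9160 to none; 34741 were found by gene ID in the RefSeq gene table of GRCm38.p6, and the unnamed were not used.

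A gene took its probe set of highest mean signal. The floor, 24.9 units, is the median over non-control probe sets of the mean of the 4 arrays; lower values were raised to it, and no pseudocount was added. Differences are log2 of KO-labelled over WT, called at 2-fold. The additive model was fitted with limma 3.58.1 in R 4.3.3 with intensity trend, Benjamini-Hochberg adjustment and 7.26 prior degrees of freedom. It was also run on simulated data with equal noise in every gene and a genotype effect unchanged by irradiation. That run checks the code and not the error rate of the fit in these data.

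The comparison, the 46 gene lists (1086 entries, 990 on the array, 815 measured) and the rules were chosen with earlier results of these data known. Named genes are the 15 largest differences each way with agreeing probe sets, the 8 largest bounds, the 10 largest limma effects, the 3 largest of each list, the 10 most opposed without irradiation, Mapk14 and the 2 genes on each side of it; other list members were named after their values were seen. Gene-model names are counted, not named (8 of the higher and 7 of the lower calls). Alternatives were 3 scalings, 2 floors, another filter, 2 gene summaries, 2 thresholds and 2 limma settings.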

Additional observations from a re-analysis of the deposited data

Results flagged for a closer look

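In 2 genes the genotype difference was past 2-fold in opposite directions in the 2 conditions. Adamtsl4, which encodes a secreted matrix protein, had a log2 difference of -1.20 after UVB and 1.14 without irradiation, with signals of 23.62, 60.17, 54.97 and 26.15 units in unirradiated WT, irradiated WT, unirradiated KO-labelled and irradiated KO-labelled cells. Dennd6b had -1.11 and 1.03, with 44.56, 55.15, 91.02 and 25.54 units. The signals lie within 4 times of the floor of 24.9 units, and the unirradiated WT value of Adamtsl4 below it. With 1 array a group the difference between the conditions was not tested.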

How the results depend on the processing

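The 163 genes higher, 169 lower, 57 shared with the unirradiated pair and 82 higher and 60 lower by limma moved as follows. Quantile normalization gave 247 higher and 313 lower, with limma at 127 lower. Median centring gave 365 lower and a median of -0.025 for all genes, with limma at 132 and 266. Loess within each pair gave limma 47 and 93. The floor at the 25th percentile (9.38 units) gave 654, 660 and 169 shared, with limma at 215 and 112, and that at the 75th (129 units) 22, 73 and 28, with limma 168 higher. The mean over probe sets gave 81 higher, and limma 0 and 6. The 1.5-fold threshold gave 925, 597 and 323, and the 3-fold threshold 14, 46 and 10. Limma without the trend and limma with genotype alone each gave 0 higher and 0 lower. Other counts stayed within 1.5 times. Of the main calls, 133 and 167 recurred under quantile normalization, 124 and 167 under centring and 123 and 169 under loess. Of 95 named genes past 2-fold, 62 stayed past it under every setting that gave a value, and 0 of 172 turned sign past it. Of 45 list medians, 14 changed sign under some setting, 13 of them with a main median between -0.06 and 0.17; the other, sex-linked genes, went from 0.59 to -0.39 with averaged probe sets. No paired analysis was possible because each group has 1 array and the numbers give no pairing, and leaving out an array leaves no comparison. The cause of each shift was not tested.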

Other observations

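Genes of sterol synthesis were mostly above 0 in the KO-labelled cells, with none past 2-fold. In cholesterol synthesis 16 of 18 measured genes were above 0 after UVB, with a median of 0.20, against 0.08 for all genes; Srebf1, a master regulator of lipid synthesis, read 243.1 units in irradiated WT and 460 in irradiated KO-labelled cells, and Lss (lanosterol synthase) 928.4 and 1364. In the unfolded protein and integrated stress response, Ddit3 (CHOP) was 2.26-fold higher, at 179.6 against 406.7 units, and its upstream factor Atf4 read 2370 and 3378, while Sesn2 was 2.23-fold lower; the median of 27 genes was 0.15. Interferon-stimulated genes had 17 of 25 below 0 and a median of -0.13, with 1 called, Isg20, an exonuclease that acts on viral RNA (100.6 against 41.96 units). Lipid barrier genes had 1 of 20 called, Ugcg, which makes glucosylceramide (73.58 against 32.46 units), and a median of 0.01. In Notch and Wnt signalling Wnt7a was 2.5-fold lower and Dkk3, a secreted Wnt modulator, 2.02-fold higher, the median of 25 genes being 0.20. The other Wnt7a probe set differed in direction, and Wnt7a was at -0.14 with averaged probe sets, while Dkk3 was under 2-fold with quantile normalization, centring and loess. In TGF-beta signalling the co-receptor Tgfbr3 was the 1 called gene of 24, at 33.93 against 70.5 units; it was under 2-fold with centring, loess and averaged probe sets, as was Ugcg with the last.

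Housekeeping and proliferation groups showed 0 called genes: 35 DNA replication genes (median 0.15), 33 of G2 and mitosis (0.12), 47 of oxidative phosphorylation (0.06), 37 cytosolic ribosomal proteins (0.04), 17 of glycolysis (0.04), 12 of the circadian clock (0.14) and 10 reference genes (0.10). For lists of these sizes, 0 lies near the share over all genes (1.58% higher and 1.64% lower). Of the 10 genes whose unirradiated difference most opposed the irradiated one, Nppb, which encodes a natriuretic peptide, was the brightest, with 415.7 and 2978 units in unirradiated and irradiated WT and 757.3 and 1368 in KO-labelled cells.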
